A study of Mus musculus with 9 samples.

Results

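The piRNA pathway genes described here are 10 genes chosen by name: the PIWI genes Piwil2 and Piwil4, the Tudor-domain genes Tdrd1, Tdrd5, Tdrd9 and Tdrd12, and the cofactors Mael, Mov10l1, Asz1 and Gtsf1. All 10 had a row among the 23420 genes of the deposited count tables, and all 10 were among the 16360 genes with enough reads to test. They were chosen with earlier results of these libraries known, among them the higher levels of Tdrd1 and Tdrd9 in treated ovaries. Their fold changes are therefore given with standard errors as a description, without p-values. RNA was sequenced from E16 embryonic ovaries of wild type CD1 mice after 24 h in culture. The 3 groups of 3 libraries each had recombinant human BMP2 at 50 ng/ml (BMP2), estradiol-17β at 3.67 µM (E2), or vehicle. The treatment of a library was read from the prefix of its title, and the prefixes B2 and C were taken as BMP2 and vehicle by matching them to the treatments of the protocol. Nothing in the labels ties the 3 libraries of a group to separate animals or cultures, so the errors and p-values below measure the spread between these libraries, which may be technical.

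Piwi-interacting RNAs are small RNAs that guide PIWI proteins of the germ line to transcripts of transposons, which are then cut or silenced at the chromatin. Long precursor transcripts are cut at the surface of mitochondria and in germ granules, where Tudor-domain proteins bind methylated arginines of the PIWI proteins and hold the machinery together. In the mouse the pathway is best known from the fetal testis and spermatocytes, where its loss releases transposons and stops sperm formation. Mouse oocytes also make piRNAs, although females without the main PIWI genes are fertile.

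Each library held 30418674 to 34320077 reads counted to genes. Levels are given as CPM, the reads of a gene relative to the library's gene total in a fixed unit, after scaling between libraries, and the correlation of log2 CPM between libraries of a group was 0.99594 to 0.99674. The ovary's cell types were present in every group: Dazl, an RNA-binding protein of germ cells, averaged 365 ± 4.60 CPM with BMP2, 365 ± 5.28 CPM with E2 and 375 ± 17.6 CPM with vehicle (SD, n = 3 each). The summed level of 10 pregranulosa markers was 2440 to 2470 CPM with BMP2, 2286 to 2313 CPM with E2 and 2417 to 2455 CPM with vehicle. Abundant genes weigh most in the sum: Kitl alone averaged 1016 CPM with BMP2, 776 CPM with E2 and 978 CPM with vehicle. The mean log2 level of the 10 markers differed from vehicle by -0.0062 with BMP2 and by 0.0070 with E2, but single markers went both ways. With BMP2 4 of the 10 were higher, 2 lower and 4 did not pass (adjusted p under 0.05, edgeR). With E2 4 were higher, 3 lower and 3 did not pass. Of all genes tested, 13.7% passed with BMP2 and 32.3% with E2. The list was chosen with earlier results of these data known. The libraries hold RNA of the whole ovary, so fewer cells of a type and less RNA per cell cannot be told apart.

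4 of the 10 genes hold the palindrome CACGTG in the 300 bases around their annotated start, and their upstream sequence is shown for that reason. The windows of Tdrd5 and Asz1, which like these 4 were higher in the treated ovaries described below, hold no such palindrome. CACGTG is an E-box bound by dimers of MAX, including the MGA-MAX dimer of a Polycomb complex that keeps germline genes off in other cells. The sequences are the 250 bases before the start in the RefSeq promoter table of build GRCm38.p6, in lower case with CACGTG in capitals, each read 5′ to 3′ on the gene's own strand. The stretch shown for Tdrd1 is chr19:56825959-56826208 (plus strand), with Tdrd9 at chr12:111971309-111971558 (plus strand), Mael at chr1:166238745-166238994 (minus strand) and Mov10l1 at chr15:88982744-88982993 (plus strand).
Tdrd1: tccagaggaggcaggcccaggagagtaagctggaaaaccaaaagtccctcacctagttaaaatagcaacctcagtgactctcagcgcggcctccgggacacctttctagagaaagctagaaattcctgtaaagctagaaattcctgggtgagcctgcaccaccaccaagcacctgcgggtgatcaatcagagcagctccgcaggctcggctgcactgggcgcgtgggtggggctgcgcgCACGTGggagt
Tdrd9: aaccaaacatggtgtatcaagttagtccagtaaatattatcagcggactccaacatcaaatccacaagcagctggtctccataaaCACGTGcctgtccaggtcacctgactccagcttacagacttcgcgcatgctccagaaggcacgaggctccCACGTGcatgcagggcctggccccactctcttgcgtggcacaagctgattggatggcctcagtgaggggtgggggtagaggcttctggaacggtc
Mael: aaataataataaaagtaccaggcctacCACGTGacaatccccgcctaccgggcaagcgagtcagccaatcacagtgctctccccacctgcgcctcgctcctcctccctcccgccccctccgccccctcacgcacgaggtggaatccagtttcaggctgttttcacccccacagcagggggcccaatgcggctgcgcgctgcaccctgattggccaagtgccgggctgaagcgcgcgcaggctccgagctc
Mov10l1: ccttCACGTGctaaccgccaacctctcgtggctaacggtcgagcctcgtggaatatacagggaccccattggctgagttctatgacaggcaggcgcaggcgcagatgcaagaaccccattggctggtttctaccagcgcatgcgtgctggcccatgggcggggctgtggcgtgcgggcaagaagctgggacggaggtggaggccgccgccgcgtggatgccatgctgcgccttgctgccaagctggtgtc
Counting the base before the start as -1, the first base of the palindrome stood at -11 in Tdrd1, at -165 and -95 in Tdrd9, at -223 in Mael and at -246 in Mov10l1. The table held a window for 9 of the 10 genes and none for Piwil2, and for a gene with several windows the first listed was used. The palindrome reads the same on both strands, and it occurred in 4 of these 9 windows, in 5 of 17 windows of other piRNA pathway genes, and in 7.24% of all 27025 windows. CACGTG contains a CpG, and the windows differ in base composition: the 9 windows hold 10 to 48 CpG and a GC content of 52.67% to 76%, against a median of 7 CpG and 52.67% over all windows. The part of this difference in the shares was not tested. The other 4 motifs were searched on both strands. TCCCGC, a core bound by E2F6, was found in 2 of the 9 windows against 20.02% of all windows. GGCGCC, a core bound by SMAD proteins of the BMP pathway, was found in 1 of 9 against 11.96%. AGGTCA, an oestrogen receptor half-site, was found in 1 of 9, in Tdrd9 at -152, against 16.04%. TAATTA, a homeobox core, was found in 0 of 9 against 5.31%. No match of CACGTG in these genes overlapped a match of another motif. A match of letters is a description and shows no binding.

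Of the 10 genes, 7 were higher with BMP2 than with vehicle past the test threshold (adjusted p under 0.05 by edgeR's quasi-likelihood test over all genes tested), and 0 were lower. Of all 16360 genes, 13.7% passed that threshold for BMP2 against vehicle, 6.84% higher and 6.85% lower. With E2 against vehicle 7 were higher and 0 lower, and of all genes 32.3% passed, 15.8% higher and 16.5% lower. They were the same 7 genes: Piwil2, Tdrd1, Tdrd5, Tdrd9, Mael, Mov10l1 and Asz1. The genes were chosen with this contrast known, so these counts describe the choice and carry no further reading. The 3 with the largest steps were Tdrd9, Tdrd1 and Piwil2, each over 1.3-fold with both agents. Both comparisons use the same 3 vehicle libraries.

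Of the PIWI genes, Piwil2 was higher with both agents. Piwil2 (chr14:70372477-70429383, minus strand) encodes MILI, the slicer that loads piRNAs cut from transposon transcripts. It had 111, 112 and 113 CPM with BMP2, 116, 119 and 115 CPM with E2, and 87.5, 84.9 and 84.8 CPM with vehicle. All 6 treated libraries stood above all 3 vehicle libraries, and the BMP2 and E2 libraries did not overlap. On the log2 scale the fold change of Piwil2 was 0.38 ± 0.028 (SE) with BMP2, or 1.31-fold, and 0.44 ± 0.028 with E2, or 1.36-fold.

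Piwil4 (chr9:14696230-14740733, minus strand) encodes MIWI2, which enters the nucleus of fetal male germ cells and directs DNA methylation of transposons. It was the scarcest of the 10 genes, with counts of 27, 30 and 28 reads with BMP2, 31, 36 and 28 with E2, and 24, 19 and 23 with vehicle. In CPM these were 0.791, 0.895 and 0.813 with BMP2, 1.02, 1.14 and 0.885 with E2, and 0.702, 0.616 and 0.711 with vehicle. Both treated groups stood above the vehicle libraries without overlap, but the counts are small and neither difference passed the test. For Piwil4 the log2 fold change was 0.30 ± 0.27 (SE) with BMP2 and 0.58 ± 0.27 with E2.

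**Figure D1:**
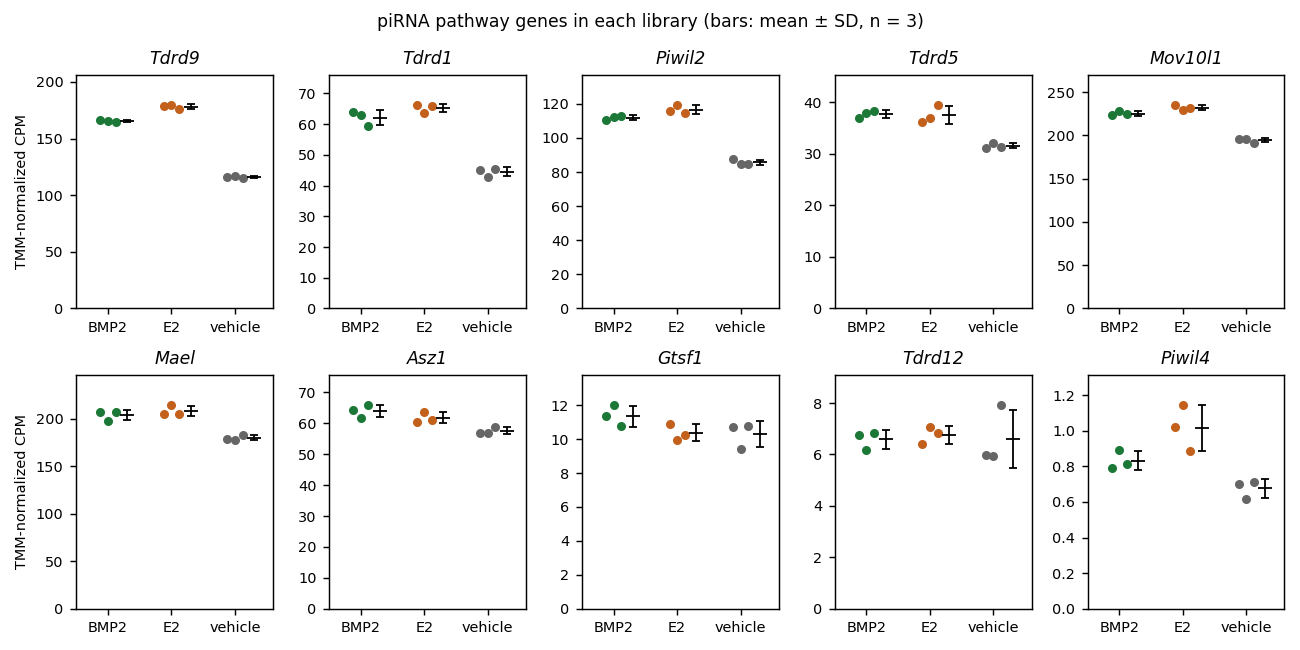
The plot shows the level of each of the 10 piRNA pathway genes in CPM, with a panel per gene, a point per library for BMP2, E2 and vehicle, and the mean with its SD (n = 3 each). In the panels of Tdrd9, Tdrd1, Piwil2, Tdrd5, Mov10l1, Mael, Asz1 and Piwil4 all treated libraries sit above all vehicle libraries. In those of Gtsf1 and Tdrd12 the groups overlap.

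Of the Tudor-domain genes, Tdrd9, Tdrd1 and Tdrd5 were higher with both agents, and Tdrd12 did not pass the test. Tdrd9 (chr12:111971559-112068854, plus strand) encodes an RNA helicase with a Tudor domain that works with MIWI2 in the fetal testis. Its levels were 166, 166 and 164 CPM with BMP2, 179, 179.6 and 176 CPM with E2, and 116, 117 and 115 CPM with vehicle. The 3 groups were fully apart, with E2 highest and vehicle lowest, and the SD within a group was 1.11, 2.08 and 1.03 CPM for BMP2, E2 and vehicle. The log2 fold change was 0.51 ± 0.024 (SE) with BMP2, or 1.42-fold, and 0.62 ± 0.024 with E2, or 1.53-fold. Of all genes tested, 1.88% had a larger log2 fold change with BMP2 and 3.21% had a larger one with E2. Tdrd9 was chosen with this contrast known, so these shares describe the choice and carry no further reading.

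Tdrd1 (chr19:56826209-56870012, plus strand) encodes a germ granule scaffold that binds MILI. Its levels were 63.9, 63.0 and 59.3 CPM with BMP2, 66.2, 63.7 and 65.9 CPM with E2, and 45.1, 43.0 and 45.6 CPM with vehicle. Every treated library lay above every vehicle library, and the BMP2 and E2 libraries overlapped. On the log2 scale the fold change of Tdrd1 was 0.48 ± 0.036 (SE) with BMP2, or 1.39-fold, and 0.55 ± 0.036 with E2, or 1.46-fold. For Tdrd1, 2.16% of genes tested had a larger log2 fold change with BMP2 and 3.95% with E2, and for Piwil2 the shares were 3.04% and 5.35%. As for Tdrd9, these shares describe the choice of the genes and carry no further reading.

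Tdrd5 (chr1:156255296-156303664, minus strand), needed in mouse spermatocytes for piRNA precursor processing, had 36.9, 38.0 and 38.3 CPM with BMP2, 36.1, 37.0 and 39.4 CPM with E2, and 31.2, 32.1 and 31.3 CPM with vehicle. The treated libraries overlapped each other and stood above the vehicle libraries. For Tdrd5 the log2 fold change was 0.26 ± 0.043 (SE) with BMP2 and 0.25 ± 0.044 with E2. Of the exon bases of Tdrd5, 2.54% overlap the gene 4930518J20Rik.

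Tdrd12 (chr7:35469098-35537745, minus strand), which takes part in making the piRNAs loaded into MIWI2, had 6.76, 6.17 and 6.83 CPM with BMP2, 6.40, 7.08 and 6.83 CPM with E2, and 5.97, 5.93 and 7.91 CPM with vehicle. The groups overlapped, and a vehicle library was the highest of the 9. The log2 fold change was -0.0025 ± 0.096 (SE) with BMP2 and 0.037 ± 0.097 with E2, and neither passed the test.

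Among the cofactors, Mov10l1, Mael and Asz1 were higher with both agents, and Gtsf1 did not pass the test. Mov10l1 (chr15:88982909-89055152, plus strand) encodes the RNA helicase that binds piRNA precursors and feeds them to the cutting machinery. Its levels were 223, 228 and 224 CPM with BMP2, 235, 229 and 232 CPM with E2, and 196, 196 and 192 CPM with vehicle. The 3 groups did not overlap, although the lowest E2 library was close to the highest BMP2 library. On the log2 scale the fold change of Mov10l1 was 0.21 ± 0.021 (SE) with BMP2, or 1.16-fold, and 0.26 ± 0.022 with E2, or 1.19-fold.

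Mael (chr1:166201201-166238747, minus strand) encodes Maelstrom, a protein of germ granules and nuclei needed for transposon silencing. It had 207, 198 and 207 CPM with BMP2, 205, 214 and 205 CPM with E2, and 179, 178 and 183 CPM with vehicle. The treated libraries overlapped each other and stood above the vehicle libraries. For Mael the log2 fold change was 0.18 ± 0.022 (SE) with BMP2, or 1.13-fold, and 0.21 ± 0.023 with E2, or 1.16-fold.

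Asz1 (chr6:18050964-18109061, minus strand) encodes GASZ, a scaffold on the mitochondrial surface of germ cells. It had 64.3, 61.8 and 65.8 CPM with BMP2, 60.6, 63.8 and 61.2 CPM with E2, and 57.0, 57.0 and 58.9 CPM with vehicle. The gap between the groups was narrow, with the lowest E2 library just above the highest vehicle library. The log2 fold change was 0.15 ± 0.034 (SE) with BMP2 and 0.10 ± 0.035 with E2. The E2 difference no longer passed the test when vehicle replicate 1 was left out (log2 fold change 0.093) or when E2 replicate 2 was left out (0.081).

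Gtsf1 (chr15:103402405-103430470, minus strand) encodes a small zinc-finger protein that speeds the slicing of targets by PIWI proteins. It had 11.3, 11.99 and 10.7 CPM with BMP2, 10.9, 9.94 and 10.2 CPM with E2, and 10.7, 9.40 and 10.8 CPM with vehicle. The groups overlapped in both comparisons, and neither passed the test. On the log2 scale the fold change of Gtsf1 was 0.14 ± 0.075 (SE) with BMP2 and 0.0065 ± 0.077 with E2.

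**Figure D2:**
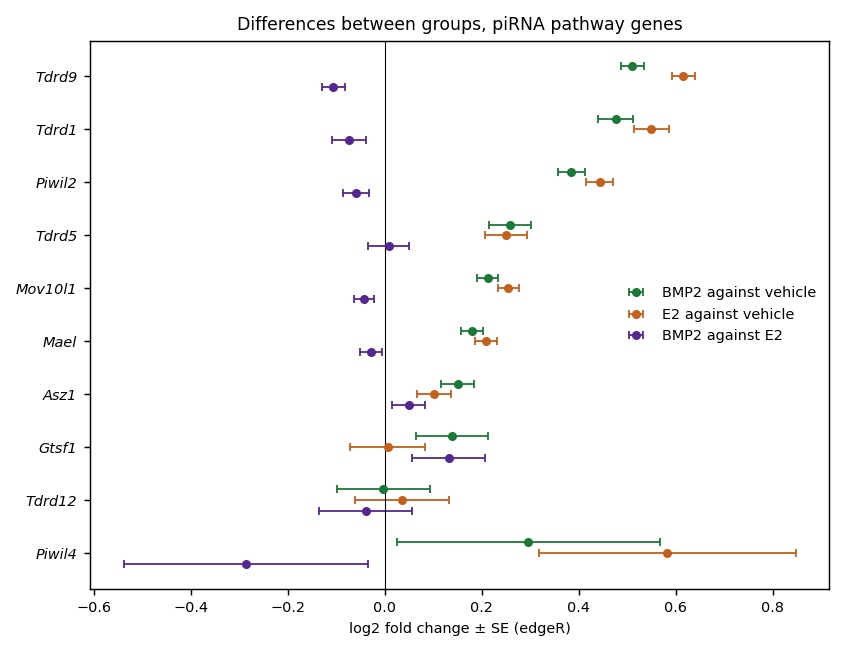
The plot gives the log2 fold change of each of the 10 genes for BMP2 against vehicle, E2 against vehicle and BMP2 against E2, with its standard error as a bar. Tdrd9, at 0.51 with BMP2 and 0.62 with E2, stands farthest from 0 among the genes with narrow bars, and the bars of Piwil4 are the widest.

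Over the 10 genes the median log2 fold change was 0.24 with BMP2, within a range of -0.0025 to 0.51, and 0.25 with E2, within a range of 0.0065 to 0.62. The median over all genes tested was -0.0015 with BMP2 and -0.0026 with E2. All 3 libraries of the treated group lay above all 3 of the vehicle group for 8 of the 10 genes with BMP2, where 14.1% of all genes did so, and for 8 of 10 with E2, where 20.4% did so. Of all genes, 14.0% lay below vehicle without overlap with BMP2 and 20.9% with E2, and 0 of the 10 did. As with the counts of genes past the threshold, these medians and counts describe the choice of the genes and carry no further reading. The summed level of the 10 genes was 889 ± 2.80 CPM with BMP2, 917 ± 6.91 CPM with E2 and 727 ± 3.16 CPM with vehicle (SD, n = 3 each).

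BMP2 and E2 were also set against each other. Of the 10 genes, 1 differed past the threshold, Tdrd9, which was lower with BMP2 by a log2 fold change of -0.11 ± 0.023 (SE). Of all genes 28.2% passed in this comparison, 14.1% higher and 14.0% lower with BMP2. Piwil2, Tdrd9 and Mov10l1 were lower in every BMP2 library than in every E2 library, at log2 fold changes of -0.059 ± 0.027 for Piwil2 and -0.042 ± 0.021 for Mov10l1, where 19.8% of all genes were lower without overlap. For the other 7 genes the groups overlapped, and the log2 fold changes of all 10 had a median of -0.041. A difference that missed the threshold does not show that the agents acted alike on that gene.

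**Figure D3:**
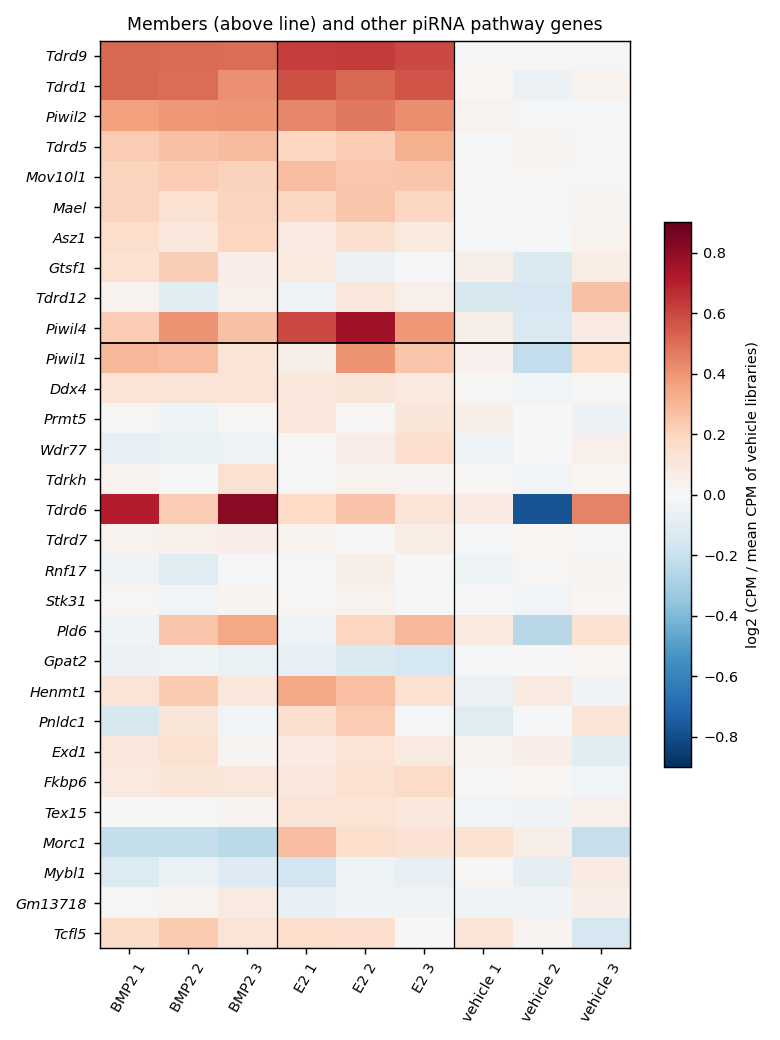
The map shows the 10 genes, above a line, and the tested other piRNA pathway genes in the 9 libraries, with columns ordered BMP2, E2 and vehicle. Colour gives the log2 of a library's CPM over the gene's mean CPM with vehicle, on a scale cut at 0.9 in either direction. In the rows of Tdrd9, Tdrd1 and Piwil2 all 6 treated libraries stand above all 3 vehicle libraries. The same holds for Tdrd5, Mov10l1, Mael, Asz1 and Piwil4.

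Levels can be compared between genes only per length, and they were divided by the length of the gene's exons in kilobases. With vehicle, Mael was highest at 104 CPM per kilobase, followed by Mov10l1 at 46.5, Tdrd9 at 21.5, Asz1 at 20.4, Piwil2 at 16.2, Tdrd1 at 8.19, Gtsf1 at 7.41, Tdrd5 at 4.55, Tdrd12 at 1.52 and Piwil4 at 0.126 CPM per kilobase. Among neighbours in this order with vehicle, Tdrd1 and Gtsf1 differed by less than the sum of their SDs, and each other pair differed by more. With E2 the order of Piwil2 and Asz1 turned, at 22.1 and 21.9 CPM per kilobase, and that difference was within the sum of their SDs. The lengths come from the GENCODE annotation of the same build, which need not be the annotation the reads were counted on.

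**Figure D4:**
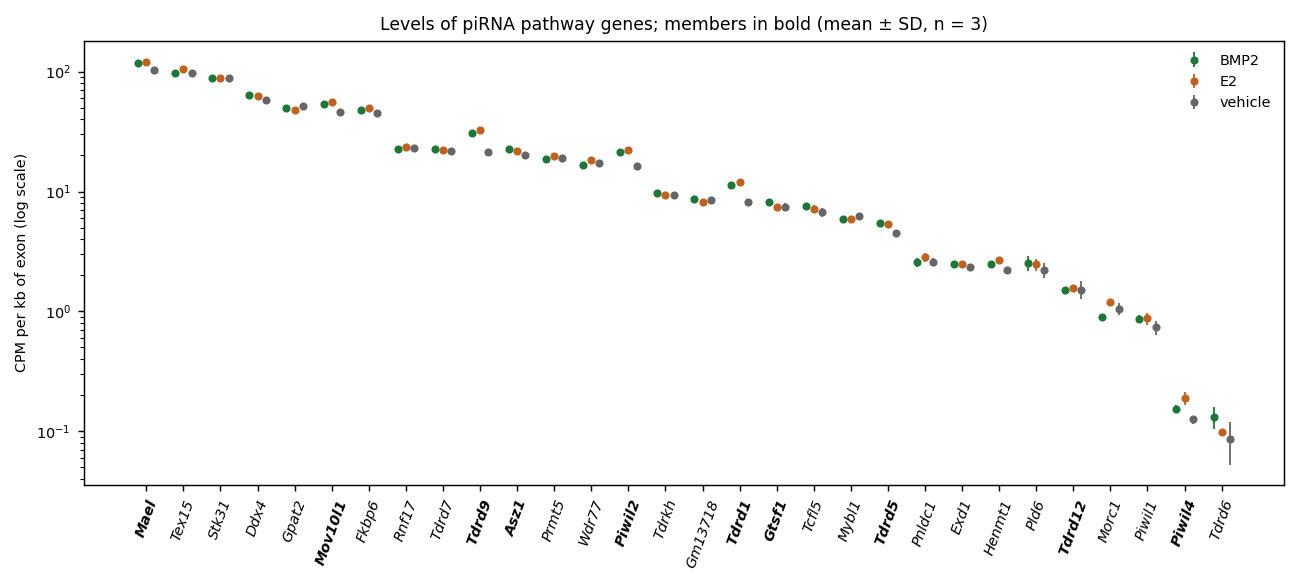
The plot gives the levels of the piRNA pathway members and of the tested other piRNA pathway genes in CPM per kilobase of exon, on a log axis. Values for BMP2, E2 and vehicle are the mean and SD of 3 libraries. Among the members, Mael is highest at 104 and Piwil4 lowest at 0.126 CPM per kilobase with vehicle.

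Across the 9 libraries the log2 CPM of the genes went together to different degrees. Over the 45 pairs of genes the median Pearson correlation was 0.814, and 14 pairs were over 0.9. The closest pair was Piwil2 and Tdrd9 (r = 0.995) and the least alike was Tdrd12 and Mov10l1 (r = 0.017). These correlations are descriptions: the points are the same 9 libraries in 3 treatment groups, so a shared treatment difference raises r. By the same measure, genes outside the 10 that were among the most like the mean of the 10 genes, each scaled to the same spread, were Ajuba (r = 0.991), Nobox (0.987), Pogk (0.980) and Prkcd (0.977). Those most like Tdrd9 were Synj1 and Lonrf3 (both 0.997) and Pogk (0.992). Those most like Tdrd1 were Aplf (0.992), Phf20 (0.989) and Tmcc3 (0.987), and those most like Piwil2 were Lonrf3 (0.993), Kdm1b (0.992) and Plxnd1 (0.990). Kdm1b encodes a histone demethylase that oocytes need for setting maternal imprints. The genes most like Mael were Smc1b (0.976), Dppa3 (0.972) and Nxf1 (0.971), and those most like Mov10l1 were Lonrf3 (0.989), Synj1 (0.985) and Aplf (0.984). For Asz1 they were Tlk1 (0.962), Bmpr1a (0.962), which encodes a BMP receptor, and Hnrnpr (0.958), and for Tdrd5 Alg13 (0.971), Vps41 (0.963) and Ttc23 (0.961). Lower values were reached for Gtsf1 with Fam50a (0.957), Ttc30a2 (0.948) and Msantd3 (0.942), and for Tdrd12 with Tiprl (0.935), Usp37 (0.933) and Ppp3r1 (0.918). For the scarce Piwil4 they were Sltm (0.966), Mfsd1 (0.964) and Rarres1 (0.960).

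Markers of germ cells were set beside these genes. Their summed level over 10 markers was 1187 to 1212 CPM with BMP2, 1201 to 1207 CPM with E2 and 1166 to 1226 CPM with vehicle, so the groups overlapped, and none of the 10 was at 0. With BMP2 3 of the 10 markers were higher, 1 lower and 6 did not pass, and the counts were the same with E2. Of all genes, 13.7% passed with BMP2 and 32.3% with E2. The markers were listed with earlier results of these data known. The 3 higher markers included Dppa3, a maternal factor of oocytes, at a log2 fold change of 0.82 ± 0.080 with BMP2 (adjusted p = 3.8e-16, edgeR) and 0.90 ± 0.080 with E2 (adjusted p = 1.2e-19). Dazl, chosen after its values were seen, differed by -0.040 with BMP2 (adjusted p = 0.204) and by -0.041 with E2 (adjusted p = 0.123). Taken against the mean log2 level of the germ cell markers, Tdrd9 differed by 0.43 with BMP2 and 0.50 with E2, Tdrd1 by 0.40 and 0.43, and Piwil2 by 0.31 and 0.32. On that scale Tdrd5 differed by 0.18 with BMP2 and 0.13 with E2, Mov10l1 by 0.13 and 0.14, and Mael by 0.10 and 0.088. Asz1 differed by 0.071 with BMP2 and by -0.019 with E2, where the libraries overlapped. The SD within a group on that scale was up to 0.12, for Tdrd1 with BMP2. For Mael it was 0.047 with BMP2, 0.038 with E2 and 0.053 with vehicle. The mean log2 level of the markers itself differed by 0.080 with BMP2, where the libraries overlapped those of vehicle, and by 0.12 with E2. Without Dppa3, Kit and Tex101 the mean of the other 7 markers differed by -0.0014 with BMP2 and by 0.028 with E2. The SD of that mean was 0.084 with BMP2, 0.018 with E2 and 0.074 with vehicle. The 3 genes left out went both ways: like Dppa3, Kit was higher, at 0.23 with BMP2 and 0.34 with E2. Tex101 was lower, at -0.25 with BMP2 and -0.23 with E2. The rise of the 10-marker mean thus rests mostly on Dppa3 and Kit.

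Some markers of other ovarian cell types also differed between the groups. Those of the ovarian surface epithelium stood lower in both treated groups. All 6 of them were lower with BMP2 and with E2, and their summed level was 530 to 542 CPM with BMP2, 415 to 423 CPM with E2 and 604 to 629 CPM with vehicle. The summed level of 5 smooth muscle and pericyte markers was 340 to 344 CPM with BMP2, 512 to 524 CPM with E2 and 374 to 382 CPM with vehicle. Myh11 alone averaged 58.2 CPM with BMP2, 202 CPM with E2 and 59.6 CPM with vehicle. Of the 5, 1 was higher with E2, 1 lower and 3 did not pass. With BMP2 0 were higher, 2 lower and 3 did not pass. The summed level of 6 macrophage markers was 62.5 to 63.8 CPM with BMP2, 59.5 to 60.6 CPM with E2 and 64.0 to 68.0 CPM with vehicle. With E2, 4 of 5 endothelial markers were higher and 1 lower, and 3 of 5 stroma markers were higher and 2 lower. With BMP2, 1 of 5 endothelial markers was higher and 1 of 5 stroma markers lower. The shares of all genes that passed against vehicle were 13.7% with BMP2 and 32.3% with E2. These lists were chosen with earlier results of these data known. No marker of these lists was at 0 in all libraries. The part of these differences in the results above was not tested.

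A further list of piRNA pathway genes held 24 entries, of which 22 had a row and 20 had enough reads to test. Gtsf2 and Spocd1 had no row under these names, Gtsf1l and Dnmt3l had too few reads, and Btbd18 was found under its older symbol Gm13718. With BMP2 3 of the 20 were higher, 0 lower and 17 did not pass (median log2 fold change 0.043), and with E2 4 were higher, 1 lower and 15 did not pass (median 0.094). Over all genes 13.7% passed with BMP2 and 32.3% with E2, so these counts are read as no result about the list. Ddx4 and Fkbp6 were higher with both agents.

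Ddx4, the RNA helicase of germ granules used as a germ cell marker, averaged 192 ± 0.603 CPM with BMP2, 189 ± 1.55 CPM with E2 and 177 ± 2.74 CPM with vehicle (SD, n = 3 each). Its log2 fold change was 0.12 ± 0.022 (SE) with BMP2 (edgeR adjusted p = 1.4e-05) and 0.097 ± 0.022 with E2 (adjusted p = 1.9e-04). Fkbp6, a co-chaperone in piRNA loading, averaged 84.7 ± 0.567 CPM with BMP2, 87.0 ± 2.15 CPM with E2 and 79.0 ± 1.13 CPM with vehicle. Its log2 fold change was 0.10 ± 0.030 with BMP2 (adjusted p = 0.012) and 0.14 ± 0.030 with E2 (adjusted p = 6.1e-05). Without vehicle replicate 3 the BMP2 difference of Fkbp6 did not pass (adjusted p = 0.0517).

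Tcfl5, a transcription factor of the male pachytene piRNA program, averaged 23.9 ± 0.967 CPM with BMP2, 22.8 ± 1.39 CPM with E2 and 21.2 ± 1.94 CPM with vehicle. It was called higher with BMP2 (log2 fold change 0.17 ± 0.055, edgeR adjusted p = 0.0221), and the call was lost without BMP2 replicate 1 (0.0544), BMP2 replicate 2 (0.141) or vehicle replicate 3 (0.294), and by DESeq2 (0.1). Tex15, a nuclear protein needed for transposon methylation in fetal male germ cells, averaged 942 ± 8.61 CPM with BMP2, 1013 ± 11.5 CPM with E2 and 938 ± 28.1 CPM with vehicle, and was higher with E2 (0.11 ± 0.017, adjusted p = 1.2e-08). Henmt1, the enzyme that methylates the 3′ end of piRNAs, averaged 6.64 ± 0.343 CPM with BMP2, 7.13 ± 0.527 CPM with E2 and 5.97 ± 0.304 CPM with vehicle. It was called higher with E2 (0.26 ± 0.095, adjusted p = 0.0283), and this was lost without vehicle replicate 1 (0.103) or 3 (0.0742), without E2 replicate 1 (0.14) or 2 (0.07), and by DESeq2 (0.0811). Gpat2, a mitochondrial protein of piRNA biogenesis, averaged 131 ± 1.06 CPM with BMP2, 125 ± 3.91 CPM with E2 and 136 ± 1.49 CPM with vehicle, and was lower with E2 (-0.12 ± 0.025, adjusted p = 3.6e-05).

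Genes of the same list that passed with neither agent against vehicle included the third PIWI gene Piwil1, at 0.23 ± 0.13 on the log2 scale with BMP2 (edgeR adjusted p = 0.251) and 0.24 ± 0.13 with E2 (adjusted p = 0.154). The transcription factor Mybl1, a regulator of pachytene piRNA genes in the mouse testis, stood at -0.10 ± 0.045 with BMP2 (adjusted p = 0.131) and -0.098 ± 0.046 with E2 (adjusted p = 0.0917). The Tudor-domain genes Tdrkh (0.056 ± 0.035 with BMP2, 0.014 ± 0.035 with E2), Tdrd7 (0.046 ± 0.029 and 0.032 ± 0.030) and Stk31 (0.0037 ± 0.020 and 0.0088 ± 0.020) were close to 0 in both comparisons. Of the exon bases of Tdrkh, 36.7% overlap Oaz3 on the other strand, and reads of the pair cannot be told apart. Tdrd6 stood at 0.59 ± 0.28 with BMP2 and 0.18 ± 0.30 with E2. The others that passed in neither were the nuclease Pld6 (0.19 ± 0.12 with BMP2, 0.16 ± 0.12 with E2), the trimming enzyme Pnldc1 (-0.016 ± 0.092 and 0.12 ± 0.092), Exd1 (0.089 ± 0.065 and 0.091 ± 0.066), the arginine methyltransferase Prmt5 (-0.0072 ± 0.032 and 0.073 ± 0.032) and its partner Wdr77 (-0.059 ± 0.031 and 0.071 ± 0.031). Rnf17 (-0.052 ± 0.025 and 0.013 ± 0.025), Morc1 (-0.23 ± 0.095 and 0.19 ± 0.092) and Gm13718 (0.041 ± 0.046 and -0.046 ± 0.047) complete the list. Some of these differences passed in other settings: Prmt5 with E2 in 4 of 16, among them the fit without E2 replicate 2 (adjusted p = 0.0159), and Wdr77 with E2 in 3 of 16, among them the fit without E2 replicate 1 (0.00862). Morc1 passed with BMP2 without vehicle replicate 3 (0.0242) and with E2 without vehicle replicate 1 (0.0488). Mybl1 passed without vehicle replicate 2 with BMP2 (0.047) and with E2 (0.0281).

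Set against E2, BMP2 gave 1 higher and 5 lower of these 20 genes, where 28.2% of all genes passed. Gpat2 was higher (log2 fold change 0.073, edgeR adjusted p = 0.0201). Tex15 (-0.10 ± 0.017, adjusted p = 9.4e-08), Wdr77 (-0.13 ± 0.031, adjusted p = 3.5e-04), Morc1 (-0.41 ± 0.094, adjusted p = 1.8e-04), Prmt5 (-0.080, adjusted p = 0.0438) and Rnf17 (-0.065, adjusted p = 0.0389) were lower. Morc1, an ATPase that represses transposons, averaged 5.84 ± 0.0743 CPM with BMP2, 7.77 ± 0.417 CPM with E2 and 6.82 ± 0.820 CPM with vehicle. Of the exon bases of Wdr77, 31.5% overlap Atp5f1 or Gm42890. The calls of Gpat2, Prmt5 and Rnf17 were lost in 6, 6 and 4 of the 16 other settings tried.

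**Figure D5:**
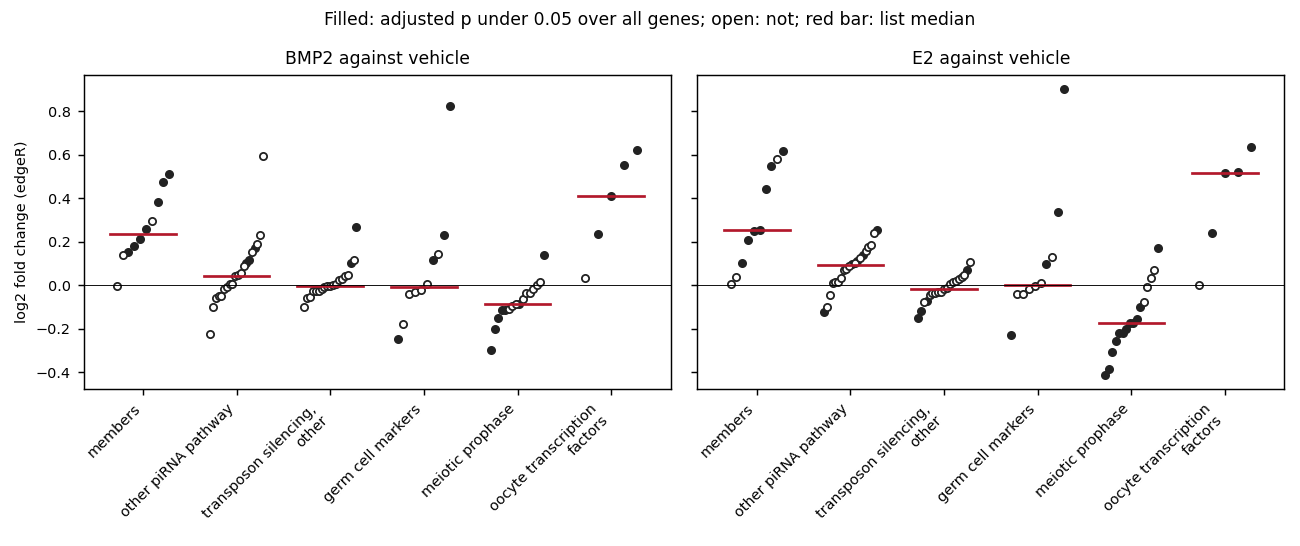
The plot gives the log2 fold change of every tested gene of the piRNA pathway members, the other piRNA pathway genes, the transposon silencing genes outside the pathway and the germ cell, meiotic and oocyte factor markers, a point per gene, for BMP2 against vehicle and E2 against vehicle. The median of the 10 members is 0.24 with BMP2 and 0.25 with E2, and that of the other piRNA pathway genes is 0.043 with BMP2 and 0.094 with E2. The members were chosen with this contrast known, so their medians describe the choice.

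Of 19 genes that silence transposons outside the piRNA pathway, 2 were higher, 0 lower and 17 did not pass with BMP2, and 1 was higher, 3 lower and 15 did not pass with E2. Since 13.7% of all genes passed with BMP2 and 32.3% with E2, these counts are read as no result about the list. Tex19.1, a germ cell protein that limits retrotransposons, averaged 31.6 ± 1.35 CPM with BMP2, 26.9 ± 0.208 CPM with E2 and 26.2 ± 0.379 CPM with vehicle. It was higher with BMP2 (log2 fold change 0.27 ± 0.047, edgeR adjusted p = 3.6e-06), differed by 0.037 with E2 (adjusted p = 0.612), and was higher with BMP2 than with E2 (0.23 ± 0.047, adjusted p = 2.9e-05). D14Abb1e, the files' name for Fam208a of the HUSH silencing complex, was higher with BMP2 (0.10 ± 0.024, adjusted p = 7.5e-04) and with E2 (0.071 ± 0.024, adjusted p = 0.0157). With E2 the histone methyltransferase Suv39h1 (-0.15 ± 0.027, adjusted p = 8.0e-07), the nucleotide hydrolase Samhd1 (-0.12 ± 0.024, adjusted p = 3.7e-05) and the chromatin remodeller Hells (-0.071 ± 0.021, adjusted p = 0.00482) were lower. The E2 call of D14Abb1e was lost without vehicle replicate 1 (0.134), vehicle replicate 2 (0.0903) or E2 replicate 3 (0.0713), and that of Hells without vehicle replicate 3 (0.0693) or E2 replicate 1 (0.053). Between BMP2 and E2, 5 of the 19 were higher with BMP2, 2 lower and 12 did not pass, where 28.2% of all genes passed. Among them Samhd1 (0.12 ± 0.024, adjusted p = 1.4e-05) and Tex19.2 (0.20 ± 0.070, adjusted p = 0.024) were higher with BMP2, and Suv39h2 was lower (-0.14 ± 0.054, adjusted p = 0.0451). The call of Tex19.2 was lost in 5 of the 16 settings, among them the fits without BMP2 replicate 3 (0.255), E2 replicate 2 (0.069) or E2 replicate 3 (0.201). The call of Suv39h2 was lost in 8, among them DESeq2 (0.123) and the fits without any 1 of the BMP2 replicates (0.0606 to 0.127) or without E2 replicate 1 (0.104) or 2 (0.208).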

How the data were processed

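Total RNA of RIN over 9 was sequenced from TruSeq RNA v2 libraries, which do not mark strand, per the labels' protocols. The authors deposited raw read counts for each gene, in a table for every library, made with TopHat2, HTSeq and DESeq2 on build mm10, per the submitters' processing notes. The annotation, like the strand setting, is not given in the sources used here, and reads shared by overlapping or antisense genes cannot be told apart. Rows for reads given to no gene held 38.2% to 39.7% of a library and were left out. Genes were kept by edgeR's filterByExpr (minimum count 10, minimum total 15). In R 4.3.3 with edgeR 4.0.16, TMM factors and 1 robust quasi-likelihood model over all 9 libraries (6 residual degrees of freedom) gave each comparison, with Benjamini-Hochberg adjustment over 16360 genes and a threshold of 0.05. The standard error of a log2 fold change is its size divided by the square root of F. The code was tested on simulated data.

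The members and lists were chosen with earlier results of these data known. The text names all 10 members, every tested gene of the further piRNA list, the called transposon silencing genes with the 4 largest log2 fold changes per comparison, the called germ cell, meiotic and oocyte markers with the 3 largest, and the genes most alike by Pearson correlation among those with a mean CPM of at least 1 (3 per member and 5 for the mean, 1 of which is not reported here). Alternatives were DESeq2 1.42.0, other normalization, filters and samples in the fit, each library left out, a replicate block, levels against germ cell markers, and removal of a GC and length trend. The last was chosen after seeing the data.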

Additional observations from a re-analysis of the deposited data

Results flagged for a closer look

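Reads that fell in no annotated gene, which no comparison above uses, made up 14.53% to 14.8% of the deposited totals with E2 (mean 14.63%), 13.58% to 13.7% with BMP2 and 13.63% to 13.94% with vehicle. The value is listed because all 3 E2 libraries stood above all 3 vehicle libraries. The part of these reads in the results above was not tested.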

How the results depend on the processing

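Of the 15 differences of the 10 members past the threshold over the 3 comparisons, 14 stayed past it in the same direction in all 16 refitted settings, and Asz1 with E2 was the exception given above. Against the mean of the germ cell markers, Asz1 with E2 turned to -0.019, where that mean itself differed by 0.12, and by 0.028 without Dppa3, Kit and Tex101. The number of members past the threshold was 7 with BMP2 in every setting, 6 to 7 with E2 when a library was left out, and 1 for BMP2 against E2. Leaving out a library moved the count over all genes to 1631 to 2235 for BMP2 against vehicle (2239 with all libraries), 4520 to 5316 for E2 against vehicle (5278) and 3938 to 4848 for BMP2 against E2 (4607). DESeq2 gave 1457 for BMP2 against vehicle. For the other piRNA pathway genes, leaving out a library gave 2 to 4 for BMP2 against vehicle (3 with all libraries), 5 to 7 for E2 against vehicle (5) and 3 to 6 for BMP2 against E2 (6), the lowest without BMP2 replicate 2. Removing a GC and length trend gave 8 with E2, and DESeq2 gave 3 for BMP2 against E2; the cause was not tested. Libraries with the same replicate number correlated at -0.009 to 0.0709 in their deviations from the group means, so the numbers were not taken as pairing. With the replicate block 7 members passed with BMP2, 7 with E2 and 1 between them, and 2512, 5512 and 4875 genes passed over all. No called difference of a named gene turned direction in a refitted setting. Depth limits Piwil4, at 19 to 36 reads per library, and Tdrd6, at 11 to 37. Among the germ cell markers it limits Nanos3, at 17 to 41, which weighs as much as the others in their mean log2 level.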

Other observations

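Of 16 markers of meiotic prophase, 1 was higher, 6 lower and 9 did not pass with BMP2 (median log2 fold change -0.087), and 1 was higher, 11 lower and 4 did not pass with E2 (median -0.17). Among all genes 13.7% passed with BMP2 and 32.3% with E2. This list too was chosen with earlier results of these data known, so the counts carry no further reading. Rec8, a meiotic cohesin subunit, was lower with E2 (-0.41 ± 0.055, edgeR adjusted p = 9.5e-11) and higher with BMP2 than with E2 (0.30 ± 0.055, adjusted p = 2.2e-06). Mei1, needed for meiotic double-strand breaks, was higher with BMP2 than with E2 (0.18 ± 0.059, adjusted p = 0.0112), and that call was lost without E2 replicate 2 (0.0834). Against vehicle Mei1 was lower with E2 (-0.22) and did not pass with BMP2 (-0.037). Smc1b, another meiotic cohesin subunit, was the marker that was higher with both agents (0.14 with BMP2, adjusted p = 4.0e-10, and 0.17 with E2, adjusted p = 9.1e-15), and is named after its values were seen.

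Of 5 transcription factors of oocytes, 4 were higher, 0 lower and 1 did not pass with each agent. Higher calls made up 6.84% of all genes with BMP2 and 15.8% with E2. The list was chosen with earlier results of these data known, so these counts carry no further reading. Nobox stood at 0.55 ± 0.074 with BMP2 (edgeR adjusted p = 7.9e-10) and 0.64 ± 0.074 with E2 (adjusted p = 4.3e-13). Lhx8 stood at 0.62 ± 0.066 with BMP2 (adjusted p = 3.3e-14) and 0.52 ± 0.068 with E2 (adjusted p = 5.5e-11), and Sohlh1 at 0.41 ± 0.050 with BMP2 (adjusted p = 1.3e-08) and 0.52 ± 0.050 with E2 (adjusted p = 3.2e-12). Dnd1, an RNA-binding protein of germ cells, was lower with BMP2 than with E2 (-0.31 ± 0.098, adjusted p = 0.00893), and the call was lost without BMP2 replicate 2 (0.0544) or E2 replicate 1 (0.0638). Against vehicle Dnd1 passed with neither agent (-0.18 ± 0.099 with BMP2 and 0.13 ± 0.096 with E2).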
